A study of Mus musculus with 2 samples.

Results

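Expression of the actin, tubulin and keratin cytoskeleton genes was examined in primordial germ cells (PGCs) of the mouse, from which sperm and oocytes later arise, at embryonic day 9.5 (E9.5). Members were chosen by gene symbol alone: actins, alpha-actinins, Arp2/3 subunits, thymosins, profilins, cofilins, tropomyosins, ERM genes, myosin heavy and light chains, tubulins, keratins, vimentin and lamins, with symbols ending in -ps left out. The rule found 76 of the 18877 genes in the table. The rule reads symbols and no measured value, but the set of families was drawn up with earlier results of these data known.

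RNA-seq was available for 1 group of 2 libraries, replicate 1 and replicate 2, both from untreated C57BL6 embryos, with PGCs isolated by an antibody against the surface antigen SSEA1. The study's methods describe female embryos and dissected gonads, and sorting by flow cytometry or magnetic beads. The study calls its RNA-seq replicates biological, and neither it nor the labels say how many embryos went into each library. Nor do they say whether the embryos carried the Actin-GFP transgene that the study used in other mice. With 1 group there was no contrast to test, and every value below is a description of both libraries. Values are the authors' TPM, a relative abundance per length of gene in which each library is scaled to the same total. TPM can therefore be compared between genes. Errors are the SD of both replicates (n = 2). Whole reads behind the low values were recovered from TPM and exon length, and gave 15912470 reads in replicate 1 and 5458687 in replicate 2. Intervals given below are exact Poisson 95% intervals of those reads and cover counting error only. Gene positions refer to GRCm38, the assembly also called mm10, as annotated by GENCODE M21.

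The labelled cell type was checked first. All 10 PGC markers were detected in both libraries (at least 1 TPM in each), with Dppa3 at 5044 ± 44.1 TPM and Nanos3 at 463 ± 14.3 TPM. Erythroid markers were also high, with a sum of 3983 TPM in replicate 1 and 3765 TPM in replicate 2 over 6 genes.

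The cytoskeleton of a cell is built from 3 kinds of filament. Actin monomers join into thin filaments, which Arp2/3 branches, cofilins cut and myosins pull. Alpha- and beta-tubulin pair and stack into microtubules, whose growth starts from rings of gamma-tubulin, and intermediate filaments are made of keratins, vimentin or, under the nuclear envelope, lamins. Mouse PGCs at this stage leave the hindgut and migrate towards the genital ridges, a movement that relies on actin and myosin.

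Several families hold near-identical genes, which limits how well reads can be assigned. Coding sequences of the pairs that carry most of the expression are shown first, 5′ to 3′, from GENCODE M21 transcripts. Tmsb10 and Tmsb4x encode thymosins, small proteins that bind actin monomers. Capitals mark the 40 of 135 bases at which these coding sequences differ, an identity of 70.4%.
Tmsb10 (chr6:72957347-72958748, minus strand): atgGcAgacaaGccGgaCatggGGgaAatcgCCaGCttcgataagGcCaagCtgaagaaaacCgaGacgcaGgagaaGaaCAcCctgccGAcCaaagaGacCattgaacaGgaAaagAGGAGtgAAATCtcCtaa
Tmsb4x (chrX:167207093-167209315, minus strand): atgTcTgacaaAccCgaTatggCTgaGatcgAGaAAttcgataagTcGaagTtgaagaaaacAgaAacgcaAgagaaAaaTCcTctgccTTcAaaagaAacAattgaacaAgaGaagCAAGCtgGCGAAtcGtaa

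Actins differ mainly at their N-terminus. The first 30 coding bases are shown for the cytoplasmic gamma and beta actins and for the cardiac and smooth muscle alpha actins, with capitals at the positions that are not the same in all 4 genes.
Actg1 (chr11:120345690-120348542, minus strand): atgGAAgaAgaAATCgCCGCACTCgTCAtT
Actb (chr5:142903115-142906754, minus strand): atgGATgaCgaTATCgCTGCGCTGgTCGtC
Actc1 (chr2:114047282-114053548, minus strand): atgTGTgaCgaCGAGgAGACCACCgCTTtG
Acta2 (chr19:34241090-34255590, minus strand): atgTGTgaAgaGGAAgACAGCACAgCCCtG
Over the whole coding sequence Actb and Actg1 were identical at 88.7% of positions, with 128 of 1128 bases different.

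Alpha tubulins are closer still. Between Tuba1b (chr15:98931425-98934565, minus strand) and Tuba1a (chr15:98949837-98953703, minus strand), 23 of 1356 coding bases differed, an identity of 98.3%. To see how far this reaches, every 100-base word of each member's transcripts was looked up in the transcripts of all other genes. No word was shared for 38 of 75 members, and more than 20% of words were shared for 12. The highest shares were 71.8% for Tmsb15b2, 65.8% for Tuba1a, 65.2% for Tuba1b and 61.4% for Tmsb15l. Values of these genes depend on how the authors counted reads with several matches, which is not stated.

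Cytoskeleton genes with a row were expressed at higher levels than the table at large. The annotation holds 143 protein-coding genes that meet the rule, and those without a row enter none of the values below. In units of log2(TPM + 1), the 76 genes had medians of 3.25 and 3.24 in replicates 1 and 2, compared with 1.89 and 1.85 over all genes. At the same limit of 1 TPM in each library, 60 of the 76 were detected (78.9%), compared with 60.0% of all genes. A mean of at least 100 TPM was reached by 15 members (19.7%) and by 6.39% of all genes. Another 8 members lay between 50 and 100 TPM. Of the rest, 13 were between 10 and 50 TPM, 30 between 1 and 10 TPM, and 10 below 1 TPM. The summed level was 5129 TPM in replicate 1 and 5024 TPM in replicate 2, which was 0.508% ± 0.00754 of all TPM. The plot of levels by family shows that several families held genes above 6 and below 2 on the log2(TPM + 1) scale in both libraries. These were the actin, Arp2/3, thymosin, myosin light chain, alpha tubulin and beta tubulin families.

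**Figure D1:**
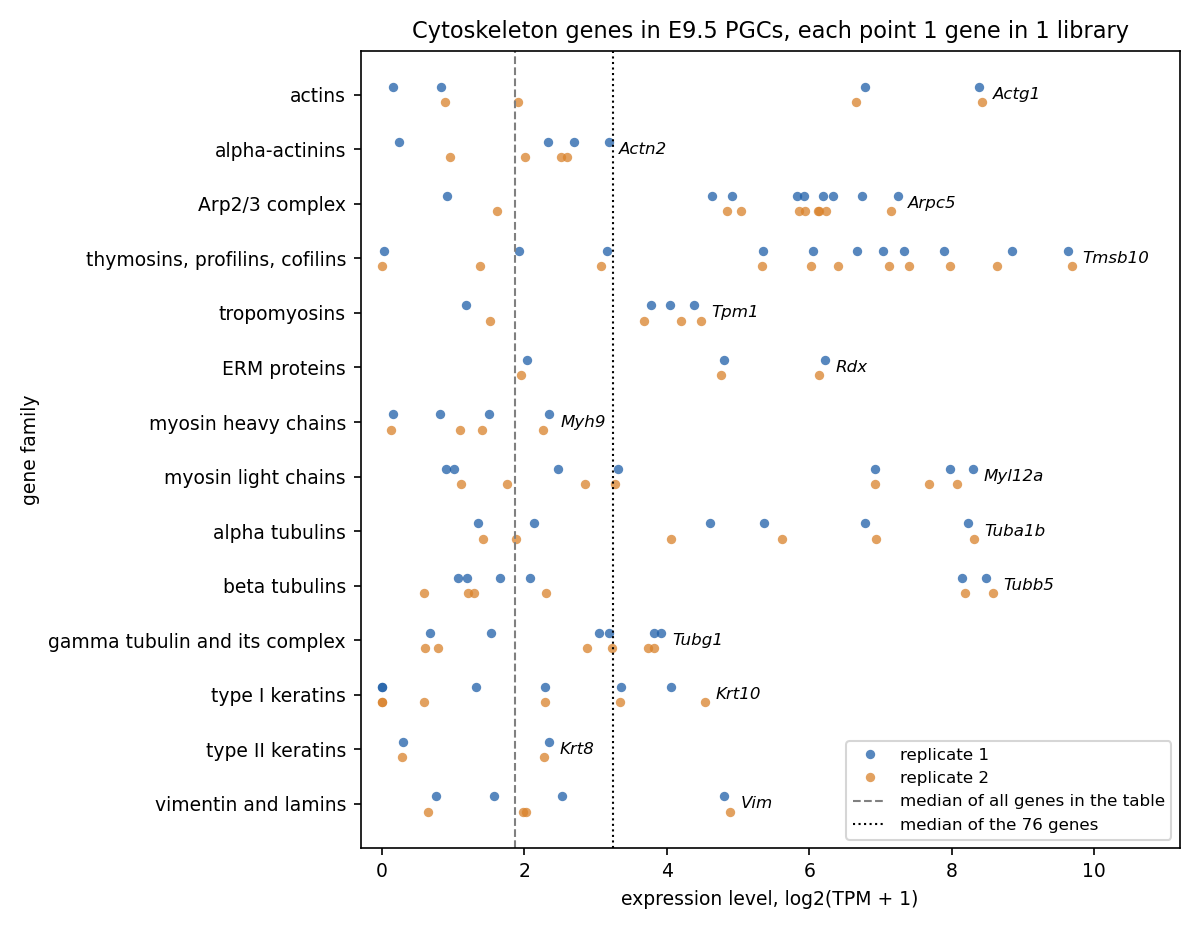
Level of each of the 76 cytoskeleton genes in both libraries on the log2(TPM + 1) scale, by family. Each point is 1 gene in 1 library, the highest gene of each family is named, the dashed line is the median of all genes (mean of both libraries 1.87) and the dotted line that of the 76 genes (3.25). The 11 thymosin, profilin and cofilin genes reach the highest levels, and the 4 myosin heavy chain genes all lie below the dotted line.

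Actins, the filament subunits, were nearly all cytoplasmic. Actg1, cytoplasmic gamma-actin, was at 333 TPM in replicate 1 and 342 TPM in replicate 2, on 8413 and 3035 reads. Actb, cytoplasmic beta-actin, was at 110 and 99.6 TPM, on 2789 and 892 reads. Gamma-actin mRNA was thus more abundant than beta-actin mRNA, by 3.04-fold in replicate 1 and 3.43-fold in replicate 2. Actg1 made up 75.9% ± 1.20 of actin TPM and Actb 23.5% ± 1.63. Part of the Actg1 value is uncertain, since 29.9% of its words were also found in other genes, Gm12715 first among them, whereas 0.644% of the Actb words were. Actc1, cardiac alpha-actin, was at 0.780 and 2.77 TPM and Acta2, smooth muscle alpha-actin, at 0.118 and 0.840 TPM. The plot of family composition shows both cytoplasmic genes filling the actin bars.

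**Figure D2:**
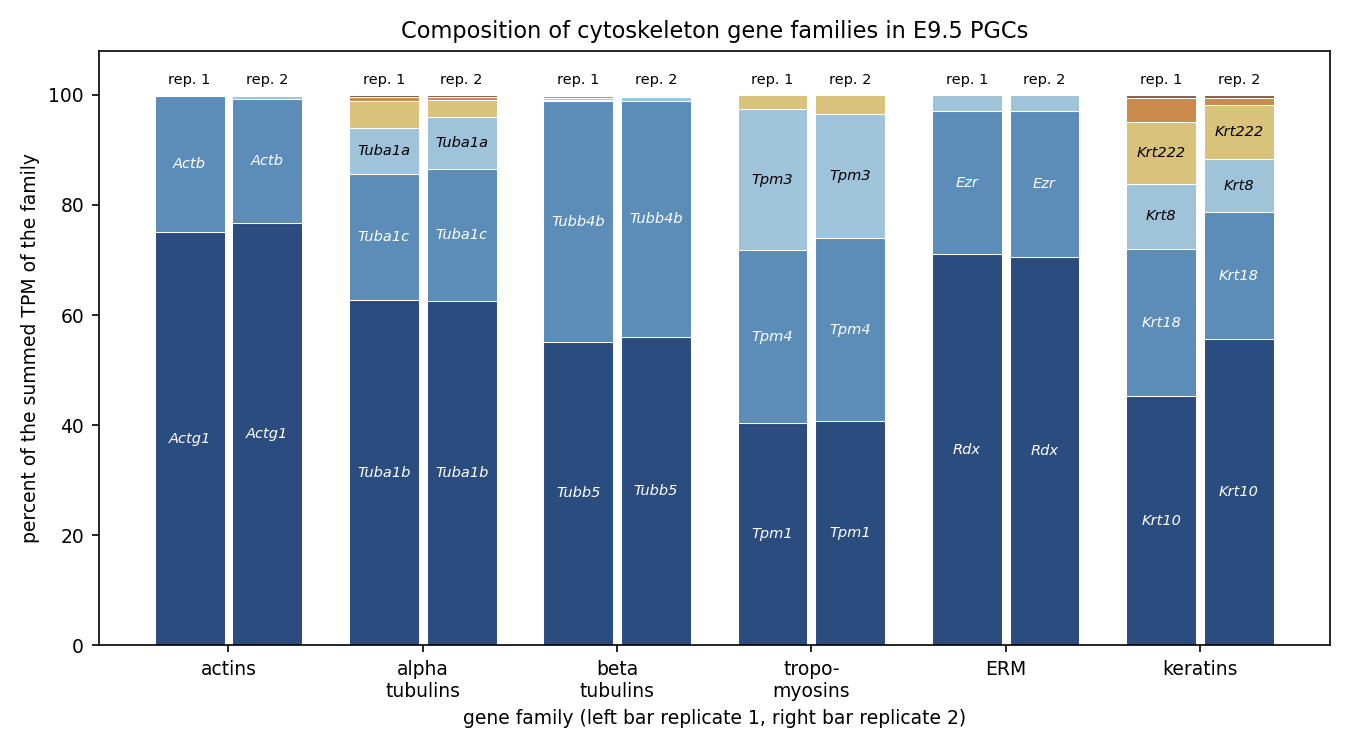
Share of each gene in the summed TPM of its family, in percent, for actins, alpha tubulins, beta tubulins, tropomyosins, ERM genes and keratins (left bar replicate 1, right bar replicate 2; each block 1 gene). Actg1, Tuba1b, Tubb5, Tpm1, Rdx and Krt10 hold the largest block of their family in both libraries, and the Krt10 block differs most between replicates, at 45.3% and 55.6%.

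By TPM, genes that keep actin monomers ready were the most abundant of all members. Tmsb10, a thymosin, was at 792 TPM in replicate 1 and at 822 TPM in replicate 2, the highest of the 76 genes and the 212th of the whole table by mean. Tmsb4x, its X-linked relative, was at 461 and 394 TPM. Their ratio was 1.72 in replicate 1 and 2.08 in replicate 2, and of the pair only Tmsb4x differed between libraries beyond counting error (449 to 473 against 376 to 413 TPM). Tmsb10 exceeded Actg1 by 2.39-fold ± 0.0196 in TPM. This order depends on exon length, which is 1276 bases for Tmsb10 and 2658 for Actg1. By reads, not divided by length, Tmsb10 had 9612 and 3508 and Actg1 8413 and 3035. Tubb5 had more reads than Tmsb10 in both libraries, 11261 and 4222, and Myl12a had more in replicate 1 only, 10052 and 3000.

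The X-linked Tmsb15 genes followed. Tmsb15b2 was listed at 237 and 250 TPM, Tmsb15l at 160 and 168 TPM and Tmsb15b1 at 131 and 138 TPM. These are not independent values. The 3 genes overlap between chrX:136954988 and 136976874, Tmsb15b2 and Tmsb15l have identical coding sequences, and 1240 and 1242 reads were recovered for them in replicate 1 and 459 and 459 in replicate 2. Their levels therefore cannot be read as those of separate transcripts. Tmsb15a, elsewhere on the X chromosome, was at 2.79 and 1.59 TPM, on 15 and 3 reads.

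Profilins load monomers for filament growth. Pfn1 was at 101 and 83.7 TPM, with intervals of 96.7 to 105 and 77.5 to 90.3 TPM that did not overlap. Pfn2, the form best known from neurons, was at 7.96 and 7.43 TPM, so that Pfn1 exceeded it by 12.0-fold ± 0.988. Pfn4, a testis form, had 1 read in replicate 1 and 0 in replicate 2, which allows up to 0.188 TPM there. Cofilins disassemble filaments. Cfl1, the non-muscle form, was at 65.1 and 63.8 TPM and Cfl2, the form best known from muscle, at 39.8 and 39.4 TPM. Cfl1 held 61.9% ± 0.161 of their sum, and both genes were within counting error between libraries.

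Arp2/3, the complex that nucleates branched actin filaments, has 2 actin-related proteins (Actr2, Actr3) and 5 other kinds of subunit, some with alternative forms. Of its 9 genes, 8 were well expressed, between 23.9 and 150 TPM in replicate 1 and between 27.6 and 141 TPM in replicate 2. Arpc5 was highest at 150 and 141 TPM, followed by Actr2 at 106 and 74.5 TPM. Arpc2 was at 79.2 and 68.4 TPM, Arpc5l, the relative of Arpc5, at 71.9 and 69.4 TPM, and Actr3 at 59.9 and 56.6 TPM. Of the alternative p40 subunits, Arpc1a was at 55.9 and 60.2 TPM and Arpc1b at 23.9 and 27.6 TPM, a ratio of 2.26 ± 0.109. Arpc4 was at 29.1 and 31.8 TPM.

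Arpc3 stood apart from these subunits. It was listed at 0.876 TPM on 23 reads in replicate 1 (0.555 to 1.31 TPM) and at 2.06 TPM on 19 reads in replicate 2 (1.24 to 3.21 TPM). Across all 9 genes the highest value exceeded the lowest by 171-fold in replicate 1 and 68.3-fold in replicate 2. Without Arpc3 the range was 6.28-fold and 5.09-fold. Arpc3 (chr5:122391878-122414184) shared no 100-base word with another gene and no exon with an overlapping gene, and its annotated exon length was 2762 bases. Why its listed level was low was not tested.

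**Figure D3:**
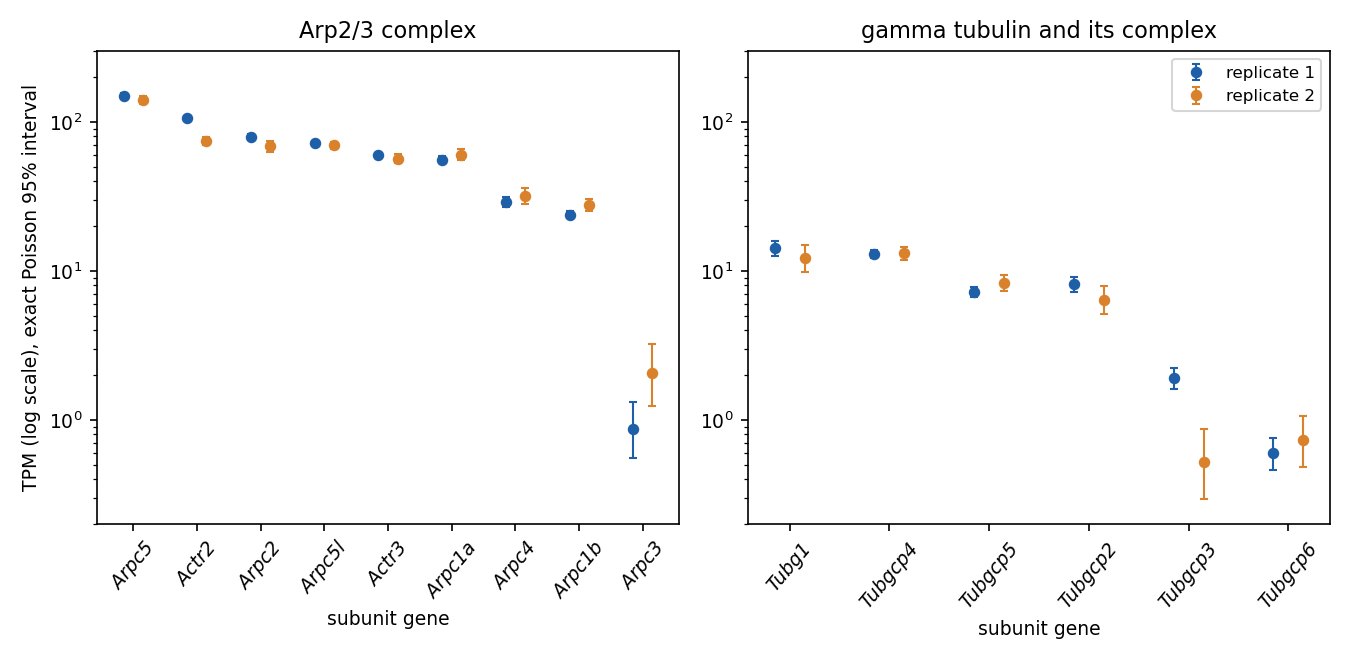
TPM on a log scale of the subunit genes of the Arp2/3 complex (left) and of gamma-tubulin and its ring complex (right), with exact Poisson 95% intervals of recovered reads (blue replicate 1, orange replicate 2). Arpc3 lies at 0.876 and 2.06 TPM, below the other 8 Arp2/3 genes, which all lie above 23 TPM, and Tubgcp3 and Tubgcp6 lie below the other gamma-tubulin complex genes.

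Tropomyosins, which wrap around actin filaments, were led by Tpm1 at 19.9 and 21.3 TPM. Tpm4 was at 15.5 and 17.4 TPM and Tpm3 at 12.7 and 11.8 TPM, whereas Tpm2 was at 1.27 and 1.85 TPM. Tpm1 held 40.5% ± 0.241 of the family by TPM and 53.7% ± 1.09 by reads; its annotated exons are longer than those of Tpm4. ERM proteins tie actin filaments to the plasma membrane. Rdx, radixin, was at 73.2 and 69.2 TPM, Ezr, ezrin, at 26.8 and 26.1 TPM and Msn, moesin, at 3.09 and 2.88 TPM. The order was the same in both libraries with no overlap of intervals between these 3 genes, and Rdx held 70.7% ± 0.366 of their sum.

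Non-muscle myosin II is the motor that contracts the actin cortex. By TPM, its light chains were abundant and its heavy chains were not. Myl12a, a regulatory light chain, was at 315 and 267 TPM and Myl12b, its neighbour on chromosome 17, was listed at 250 and 203 TPM, although no interval could be set for the latter because its symbol belongs to more than 1 gene identifier. Of the exonic bases of Myl12a, 19.9% overlap other genes, Myl12b on the same strand first among them. Of its words, 16.3% were found in other genes, so the values of Myl12a and Myl12b may not be independent. Myl6, the essential light chain, was at 121 and 120 TPM. The heavy chains were Myh9 at 4.10 and 3.77 TPM, on 504 and 163 reads, and Myh10 at 1.83 and 1.14 TPM, on 182 and 40 reads. Myh9 held 72.9% ± 5.37 of the sum of both. The gap between light and heavy chains is narrower by reads, not divided by length. Annotated exons span 12928 bases in Myh9 and 10458 in Myh10, compared with 3187 in Myl6. Myl6 had 3653 and 1281 reads, still above each heavy chain. Actn1 and Actn4, the non-muscle alpha-actinins that crosslink filaments, were at 5.46 and 4.70 TPM and at 4.05 and 3.03 TPM.

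Muscle-type members were low, and 5 of 11 reached 1 TPM in both libraries. This set of 11 genes was grouped by known tissue of expression after the values had been seen. Its sum was 26.6 TPM in replicate 1 and 31.5 TPM in replicate 2, and 8 of the 11 were higher in replicate 2, compared with 7715 of the 18877 genes of the table. Myl7, the atrial regulatory light chain, was highest at 8.91 and 8.62 TPM, on 50 and 17 reads. Actn2, the alpha-actinin of the sarcomere, was at 8.07 and 5.04 TPM, and it was lower in replicate 2 beyond counting error. Myl9, the smooth muscle regulatory light chain, was at 4.53 and 6.18 TPM.

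Direction was not the same for all muscle-type genes. Actc1, Myl4 and Myh6, known from heart, were each higher in replicate 2. Myl7, Actn2 and Myh7b were lower there, and of these only Actn2 was lower beyond counting error. Actc1 had 12 reads in replicate 1 (0.403 to 1.36 TPM) and 15 in replicate 2 (1.55 to 4.57 TPM). Myl4, the atrial essential light chain, was at 0.862 TPM (0.610 to 1.18) and 2.39 TPM (1.68 to 3.29). Myh6, the alpha heavy chain of heart muscle, was at 0.751 TPM (0.554 to 0.995) and 1.65 TPM (1.16 to 2.27). The intervals of the libraries did not overlap for Actc1, Myl4 and Myh6. Over all genes with recovered reads, 24.6% had intervals that did not overlap, and over all members 22.2%. Myl1, a skeletal muscle light chain, was at 1.01 and 1.15 TPM, Actn3 at 0.182 and 0.930 TPM, and Myh7b had 7 and 2 reads.

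Markers of muscle were read beside them. Of 9 striated muscle markers 2 were in the table, with Nppa at 2.43 TPM in replicate 1 and listed at 0 in replicate 2, and Tnni1 at 0.234 and 0.415 TPM. The smooth muscle marker Tagln was at 0.476 and 0.451 TPM. Neither striated marker reached 1 TPM in both libraries. In RNA from a pool of cells, few cells of another type and little RNA per cell cannot be told apart, and the part of other cells in these values was not tested.

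**Figure D4:**
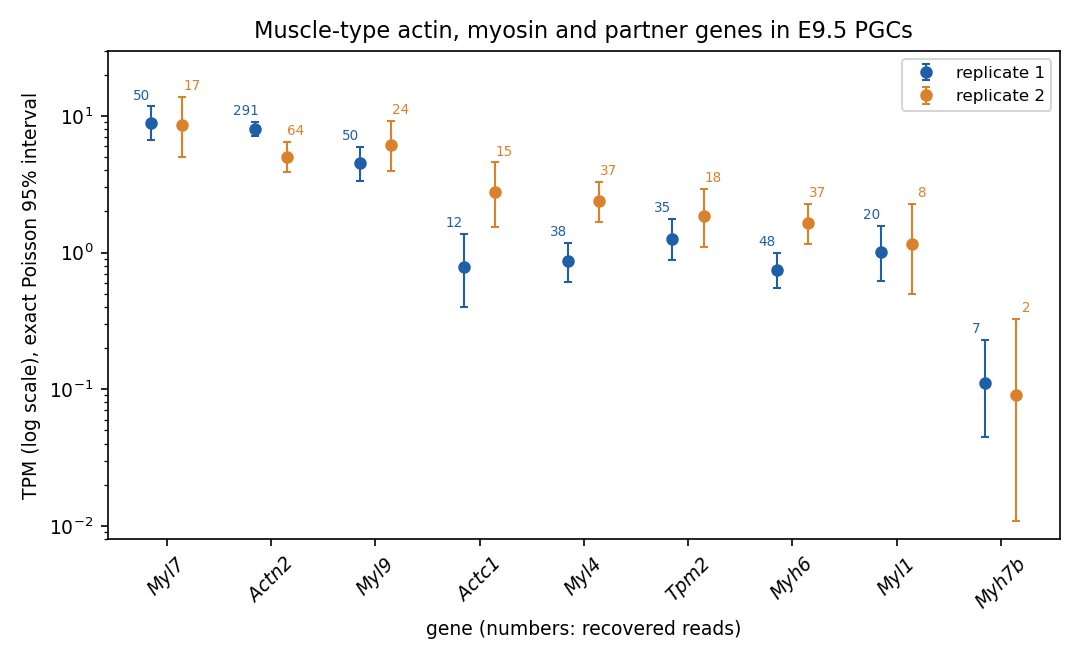
TPM on a log scale of 9 of the 11 muscle-type genes, those with recovered reads, with exact Poisson 95% intervals and the number of reads above each point (blue replicate 1, orange replicate 2). The intervals of Actc1, Myl4 and Myh6 lie higher in replicate 2, that of Actn2 lies lower, and the others overlap. Over all genes with recovered reads, 24.6% had intervals that did not overlap.

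The promoters of the members were searched for the CArG box, the site of serum response factor, a regulator of many actin and myosin genes. Windows from RefSeq on GRCm38.p6 span 250 bases before to 50 bases after a start site, both strands were searched, and 67 of the 76 members had a window. A CArG box was found for 6 of them (8.96%), compared with 1.67% of 10839 genes in the table. The 6 were Actc1, Actg1, Arpc4, Myl6, Myl7 and Myl9. They ranged from Actg1 at 337 ± 6.06 TPM to Actc1 at 1.78 ± 1.41 TPM, so that a box in this window went with high as well as low levels. Boxes of 5 genes are shown on the strand of the gene, with the box in capitals. In these, the match and the flanking bases shown all lay inside the window and before the start site.
Actc1 (chr2:114052903-114052932, minus strand): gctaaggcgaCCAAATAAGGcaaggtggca
Myl9 (chr2:156775293-156775322, plus strand): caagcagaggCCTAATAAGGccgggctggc
Myl6 (chr10:128493040-128493069, minus strand): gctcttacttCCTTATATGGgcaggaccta
Myl7 (chr11:5898824-5898853, minus strand): ccattcctctCCTTATTTGGgcctctgggt
Actg1 (chr11:120348566-120348595, minus strand): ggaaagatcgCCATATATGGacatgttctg
The boxes ended 37 bases before the start site in Actc1, 151 in Myl9, 40 in Myl6, 51 in Myl7 and 80 in Actg1. A match is a string of bases and not a measured site. TATAAA was found on either strand in 17.9% of the members with a window and in 9.39% of genes, and CCAAT in 44.8% and 43.5%.

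Alpha and beta tubulins, the microtubule subunits, were each led by a pair or trio of genes. Tuba1b was at 297 TPM in replicate 1 and 316 TPM in replicate 2, Tuba1c at 109 and 121 TPM, and Tuba1a at 40.1 and 47.9 TPM. Tuba1b held 62.6% ± 0.101 of alpha tubulin TPM, a share that is uncertain because these 3 genes share between 46.0% and 65.8% of their words with other genes. Tuba3a, of the type known from testis, was at 23.4 TPM in replicate 1 (20.9 to 26.0) and 15.7 TPM in replicate 2 (12.4 to 19.5). It exceeded its near-copy Tuba3b, at 1.54 and 1.69 TPM, in both libraries. Tuba4a was at 3.41 and 2.67 TPM, and 37.3% of its exonic bases overlap Stk16 on the opposite strand.

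Of the beta tubulins, Tubb5 was at 356 and 380 TPM and Tubb4b at 281 and 291 TPM, and both together made up nearly all of the family. Tubb5 held 55.6% ± 0.599 by TPM and 66.8% ± 0.364 by reads. Part of this split is uncertain, since 22.0% of Tubb4b words were found in other genes, compared with 0% of Tubb5 words. The sum of alpha tubulins was 0.736 of that of beta tubulins in replicate 1 and 0.745 in replicate 2. Beta tubulins best known from neurons were low. Tubb3 was at 1.30 and 1.44 TPM, Tubb2a at 2.16 and 1.30 TPM and Tubb2b at 1.10 TPM (0.705 to 1.64) and 3.91 TPM (2.64 to 5.58). Tubb2b was the only one of these 3 whose intervals did not overlap, and 26.0% of its words and 36.9% of those of Tubb2a were found in other genes. Neural markers had sums of 5.54 and 6.37 TPM over 4 genes, led by Pax6 at 3.55 TPM in both, with Nefl at 0.124 and 1.59 TPM. Their part in the Tubb2b value was not tested. Tubb6 was at 3.23 and 0.511 TPM, the reverse direction, and no whole reads could be recovered for it.

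Gamma-tubulin starts microtubules together with the ring proteins of the Tubgcp genes. Tubg1 was at 14.2 and 12.3 TPM, Tubgcp4 at 13.1 and 13.1 TPM, Tubgcp5 at 7.24 and 8.34 TPM and Tubgcp2 at 8.11 and 6.39 TPM. The remaining ring genes were lower. Tubgcp6 was at 0.596 and 0.731 TPM, and Tubgcp3 was at 1.90 TPM on 155 reads in replicate 1 and 0.524 TPM on 15 reads in replicate 2 (1.62 to 2.23 against 0.293 to 0.864 TPM). Of all members with at least 100 reads in both libraries together, Tubgcp3 had the largest fold difference in TPM, 3.63-fold, which was under 2-fold on the log2(TPM + 1) scale (fell by 0.93).

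Keratins, the intermediate filaments of epithelia, were low beside actins and tubulins. The 6 type I genes summed to 30.2 and 35.6 TPM and both type II genes to 4.31 and 4.03 TPM. Krt10, a type I keratin of differentiating epidermis, was highest at 15.6 TPM (13.9 to 17.5) in replicate 1 and 22.1 TPM (18.7 to 25.8) in replicate 2. The simple epithelial pair was Krt18 at 9.22 and 9.16 TPM and Krt8, its type II partner, at 4.08 and 3.82 TPM, a ratio of 2.33 ± 0.0984. That ratio is uncertain, since 17.1% of Krt8 words were found in other genes, Krt8-ps first among them. Krt222 was at 3.87 and 3.91 TPM, Krt42 had 25 and 3 reads and Krt7, also of simple epithelia, 15 and 5 reads. Krt23 and Krt27 were listed at 0 in both libraries, where 0 reads allow up to 0.573 and 0.579 TPM in replicate 2.

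Epithelial markers were read beside the keratins. Of 5 surface epithelium markers, 4 were in the table, with Grhl3 at 11.7 and 11.6 TPM and the other 3 between 1.09 and 1.63 TPM on average. Their sum was 15.7 TPM in replicate 1 and 15.4 TPM in replicate 2, most of it Grhl3. Cldn6 was at 1.47 and 1.79 TPM and Cdh3 at 1.49 and 0.887 TPM. The part of epithelial cells in the Krt10 difference was not tested. The gut and visceral endoderm markers summed to 1.27 and 2.20 TPM over 4 genes, with Foxa1 at 0 in both libraries.

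Vim, the intermediate filament of mesenchymal and many migrating cells, was at 26.9 and 28.6 TPM, above every keratin. The mesenchyme markers beside it summed to 2.37 and 3.95 TPM over 5 genes, with Lum at 0 in both. The B-type lamins of the nuclear envelope were Lmnb1 at 4.76 and 2.93 TPM and Lmnb2 at 1.99 and 3.07 TPM. Lmnb1 was higher beyond counting error in replicate 1 (3.99 to 5.64 against 1.58 to 2.47 TPM), whereas the intervals of both genes overlapped in replicate 2. Lmntd2, which encodes a lamin-tail domain protein, had 14 and 4 reads.

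Agreement between the libraries was close for abundant members. Of the 76 genes, 3 (3.95%) were over 2-fold apart as log2(TPM + 1), compared with 10.2% of all genes. Actc1 and Tubb2b were higher in replicate 2, where the share of all genes was 4.31%, and Tubb6 was higher in replicate 1, where it was 5.89%. All 3 were under 4 TPM. With at least 100 reads in both libraries together, 0 of 51 members differed more than 2-fold on the same scale, compared with 2.52% of all genes. That scale damps low values: in TPM itself Tubgcp3, among these 51, differed by 3.63-fold. Intervals of the libraries did not overlap for 16 of 72 members (22.2%), compared with 24.6% of all genes, so members departed from counting noise about as often as other genes did. In the scatter of both libraries the abundant members lie along the diagonal.

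**Figure D5:**
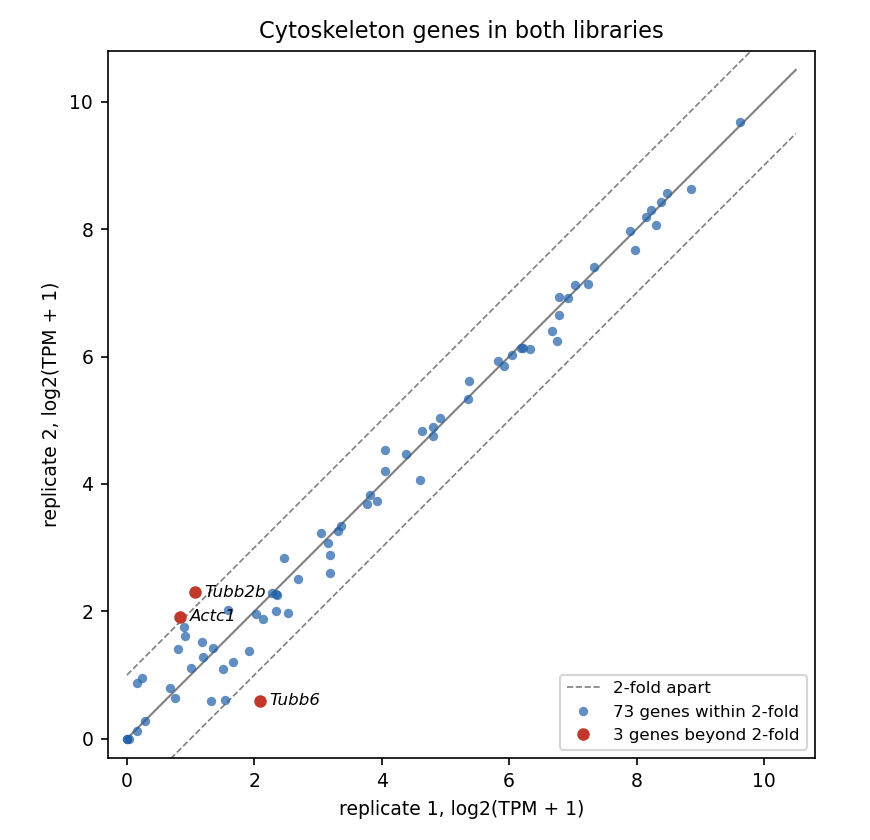
Replicate 2 against replicate 1 on the log2(TPM + 1) scale for the 76 cytoskeleton genes. The solid line marks equal values and dashed lines a 2-fold difference. Actc1, Tubb2b and Tubb6 lie beyond 2-fold, all in the lower left, and 73 genes lie within it.

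Of 22 members with recovered reads and a mean of at least 50 TPM, 5 (22.7%) were lower in replicate 2 with no overlap of intervals, compared with 26.4% of all genes at that level, and 2 (9.09%) were higher, compared with 17.7%. Neither share of the members was above that of all genes. Actr2 differed most, by 1.43-fold, followed by Pfn1 at 1.20-fold, Myl12a at 1.18-fold, Tmsb4x at 1.17-fold and Arpc2 at 1.16-fold. Tubb5 and Tuba1c were higher in replicate 2, by 1.07-fold and 1.12-fold. Of 5 macrophage markers 4 had a row, and all 4 had lower values in replicate 2. Their sums were 19.4 and 9.53 TPM in replicates 1 and 2. Among all 18877 genes, 9688 were lower in replicate 2, so a lower value alone was common. Of 6 endothelial markers 5 were in the table and 4 of these were lower, with sums of 12.9 and 11.0 TPM. Pecam1, at 8.23 and 9.99 TPM, was the one that was higher, and it held most of both sums. Emcn was at 2.12 TPM and listed at 0, and Tek was at 1.29 and 0.635 TPM. Kdr was at 0.850 and 0.166 TPM and Cldn5 at 0.446 and 0.212 TPM. The part of these cell types in the differences of the members was not tested.

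Genes that work with these filaments but lie outside the symbol rule were taken as 3 lists. On the actin side 40 of 41 genes had a row and 36 of them reached 1 TPM in each library. Twf1, twinfilin, a monomer-binding protein, was highest at 331 and 194 TPM, followed by the small GTPase Cdc42 at 219 and 178 TPM. Capza2, a capping protein subunit, was at 79.4 and 60.0 TPM and Dstn, destrin, a relative of cofilin, at 60.3 and 70.7 TPM. More than 2-fold apart as log2(TPM + 1) were 0 of the 40, compared with 10.2% of all genes and 2.52% of those with at least 100 reads.

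On the tubulin side 29 of 31 genes were in the table and 24 were detected in both libraries. The list was led by the CCT chaperonin, which folds actin and tubulin, and by tubulin cofactors. Cct8 was at 692 and 659 TPM, Cct2 at 613 and 610 TPM, Cct5 at 474 and 510 TPM, and Tbca, which binds beta-tubulin, at 484 and 472 TPM. All 8 CCT genes in the list were above 100 TPM in both libraries. Of the lamina and intermediate filament list 9 of 14 genes were in the table and 7 were detected in both. Banf1, which binds chromatin to the lamina, was at 1230 and 1114 TPM, Lbr, the lamin B receptor, at 62.5 and 47.7 TPM, and Dsp, desmoplakin, at 10.4 and 12.0 TPM. Ina, a neuronal intermediate filament gene, was at 5.32 and 5.54 TPM. The neurofilament genes Nefl and Nefm, 2 of these 9, differed more than 2-fold as log2(TPM + 1), compared with 10.2% of all genes. They had 4 and 15 reads in replicate 1 and 18 and 31 reads in replicate 2. On the tubulin side 0 of the 29 genes differed more than 2-fold on that scale.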

How the data were processed

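Transcriptomes of 2 libraries of E9.5 PGCs were available as 1 table. The authors aligned reads to mm10 with Hisat2, counted them per gene with featureCounts and deposited TPM, per the methods, while the submitters' processing notes also name Bowtie2, RSEM, R 3.4.2 and DESeq2. Library chemistry is uncertain, since methods and labels name different kits. Strand handling and reads with several matches are not stated, so overlapping genes and near-copies are uncertain. Groups came from the titles.

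Symbols were matched to GENCODE M21 (18748 of 18877 matched). TPM times exon length gave whole multiples of 1 amount per library, taken as 1 read: 96.7% and 95.8% of values under 50 reads came within 0.02 of a whole number, where chance gives 4%. Recovered reads served for depth, Poisson 95% intervals and the limit of a zero (3 reads). Acta2, Actn3 and Tubb6 gave no whole reads. On simulated data for 18748 genes, 100% of read counts were recovered in both libraries. That simulation used the same exon lengths as the recovery, so it cannot show errors where the authors' lengths differ. In the real data whole reads were kept for 18344 genes. Because reads carry no molecular identifiers, intervals cover counting error only. Levels were compared as log2(TPM + 1), which understates differences of low genes, and no test was possible with 1 group.

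The members and all lists were chosen with earlier results of these data known. Named were all members of families of 8 or fewer, otherwise the 5 highest and 2 lowest, those at a mean of at least 50 TPM, and those more than 2-fold apart with at least 100 reads. Arpc4, Cfl2 and Pfn2 were named in addition. The alternatives were another pseudocount, filters, detection thresholds, scalings, shares of reads and leaving out each replicate. Of the annotation's genes, 143 protein-coding ones meet the rule, and those without a row were not analysed here. Promoters are RefSeq's. Some sequences are not reported here. Analyses used Python 3.11.15, numpy 2.4.6, pandas 2.3.3, scipy 1.17.1, Biopython 1.88 and matplotlib 3.10.9.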

Additional observations from a re-analysis of the deposited data

How the results depend on the processing

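For 12 results, 42 values were recomputed under alternatives, and 29 stayed within the spread between replicates or within 1.5 times a count. The other 13 moved. The 29 do not measure robustness. For a median, sum or share, leaving out 1 of 2 replicates must stay within that spread. The median level of the members was 3.10 with a pseudocount of 0.1 and 3.96 over members at a mean TPM of at least 1, and 3.24 to 3.25 when either replicate was left out. Their share of all TPM was 0.640% without mitochondrial genes and genes under 200 exonic bases and 0.671% of recovered reads. It was 0.467% without Tmsb15b2 and Tmsb15l, an alternative chosen after seeing the data, and 0.503% to 0.514% with 1 replicate left out. More than 2-fold differences were found for 10 members and 23.7% of all genes with a pseudocount of 0.1, and for 0 members and 2.77% of genes when the mean had to reach 10 TPM. Rescaling by the median ratio of 0.968 (log2 -0.05) left 3 members. By reads, not divided by length, the leading shares were 59.8% for Tuba1b, 66.8% for Tubb5, 53.7% for Tpm1 and 75.7% for Rdx. With 1 replicate left out, 63 or 64 members were detected. The shares were then 75.1% to 76.8% for Actg1, 62.5% to 62.7% for Tuba1b, 55.2% to 56.0% for Tubb5, 45.3% to 55.6% for Krt10, 40.3% to 40.7% for Tpm1, 69.1% to 76.7% for Myh9 and 70.5% to 71.0% for Rdx. Values under about 20 reads, mostly in replicate 2, are limited by depth. No paired analysis was possible because there was 1 group.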
